A study of Mus musculus with 5 samples.

Results

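The comparison described here is of lung cells that keep β1 integrin (Itgb1), 7 days after lipopolysaccharide (LPS). It covers mice with the gene deleted in alveolar type 2 (AT2) cells and control mice. The groups also differed in sex and library, as given below, so their differences cannot be credited to the deletion alone. Endothelial and mesenchymal cells of Itgb1 iKO mice were set against those of Itgb1 fl/fl mice. They were picked by transcripts alone, from barcodes with at least 700 genes and 0.1 to 15% mitochondrial unique molecular identifiers (UMIs, each 1 captured RNA molecule). An endothelial cell held at least 2 UMIs of Cdh5 and Pecam1 together and none of Epcam, Pdgfra, Pdgfrb or Ptprc. A mesenchymal cell held at least 2 UMIs of Col1a2 and none of Cdh5, Pecam1, Epcam or Ptprc. The rule found 12664 cells of the 29500 that passed the quality limits in all 5 libraries. Of these, 7085 were fl/fl (6690 endothelial, 395 mesenchymal) and 5579 were iKO (5027 endothelial, 552 mesenchymal).

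The iKO mice carried SP-C rtTA, Tet-O-Cre and floxed Itgb1, so that doxycycline switched on Cre where the surfactant protein C promoter is active, and the controls were fl/fl littermates without the 2 transgenes. Both genotypes had been given doxycycline and then a month without it, and were adults of 3 months when LPS was instilled once into the trachea. Another day 7 library came from iKO mice given PBS, and 2 libraries, fl/fl and iKO, came from LPS-treated mice at day 21 and were enriched for EPCAM+ cells. No library of fl/fl mice given PBS was among those used here, so the genotypes could not be compared without LPS. All cells were viable, CD45-negative and Ter119-negative by sorting. The mice of a condition were pooled into 1 droplet library, with cells tagged by hashtag antibodies.

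In each library 3 hashtags were in use. Each was taken as 1 mouse, since the labels say that cells of individual mice were tagged, and mice 1, 2 and 3 of both groups carried hashtags 3, 4 and 5. A cell entered a mouse's sum only if it carried a single tag (79.4% of fl/fl and 80.6% of iKO endothelial cells, 50.9% and 49.8% of mesenchymal cells). The endothelial sums held 1956, 1747 and 1611 cells in fl/fl mice 1, 2 and 3 and 1389, 1475 and 1190 cells in iKO mice 1, 2 and 3, with 3846910 to 5192692 UMIs each. The mesenchymal sums were smaller, with 39, 43 and 119 cells in fl/fl and 40, 75 and 160 cells in iKO mice and 205232 to 1224441 UMIs each. Levels below are counts scaled to 1000000 UMIs of a mouse's sum (CPM), listed in the order of mouse 1, 2 and 3.

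The 3 fl/fl mice expressed Xist (292 to 317 CPM over all tagged cells) with no UMI of the Y-linked genes, and the 3 iKO mice given LPS held Y-linked transcripts at 147 to 158 CPM with Xist at 0 to 0.301 CPM. Each genotype was also 1 library, so genotype, sex and library cannot be told apart in the LPS day 7 comparison. Genes of the X and Y chromosomes were left out for this reason. Of the iKO mice given PBS, mouse 1 expressed Xist (199 CPM) and mice 2 and 3 held Y-linked transcripts, and their levels are given where they help to read a difference. The 2 LPS libraries shared 145 cell barcodes, 1.32% and 1.5% of their barcodes. Mitochondrial genes made up 1.68% to 1.74% of endothelial UMIs in fl/fl and 1.36% in each iKO mouse given LPS, and the part of this difference in the results was not tested. Macrophage markers summed to 154 to 331 CPM and lymphocyte markers to at most 1.3 CPM in endothelial cells, with overlapping genotypes. The marker lists separated the gates in part. The summed level was 8778 CPM in endothelial and 848 CPM in mesenchymal cells for general capillary, 1852 and 268 CPM for lymphatic, 84.1 and 2151 CPM for pericyte and 5095 and 25494 CPM for adventitial fibroblast markers. The aerocyte list was 8762 and 7006 CPM, and the arterial (2433 and 11901 CPM) and venous (711 and 3933 CPM) lists were higher in mesenchymal cells. Most of the mesenchymal level of these 3 lists was from Igfbp7 (6426 CPM), Mgp (10827 CPM) and Eln (3278 CPM).

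The alveolar wall joins epithelium, capillary endothelium and fibroblasts across thin basement membranes. Capillary endothelium has 2 main forms, aerocytes, which line the gas exchange surface and express Car4, and general capillary cells, which express Gpihbp1 and act as their progenitors. Fibroblasts and pericytes support both the capillaries and the AT2 cells. β1 integrin is the shared partner of many alpha subunits in receptors for laminin, collagen and fibronectin, and is used by all of these cells.

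The level of Itgb1 (chr8:128685654-128733200, GRCm38) in endothelial cells was 1037, 1109 and 989 CPM in fl/fl and 1085, 976 and 1182 in iKO mice (edgeR quasi-likelihood test, log2 fold change 0.02 ± 0.10 SE, adjusted p = 0.939, n = 3 mice each). In mesenchymal cells it was 501, 745 and 921 CPM in fl/fl and 742, 721 and 874 in iKO mice (log2 fold change 0.16 ± 0.23, adjusted p = 0.998). The groups overlapped in both cell types. In the epithelial cells of the same libraries, among which the gene was deleted in AT2 cells, it was 235, 268 and 246 CPM in fl/fl and 147, 131 and 198 CPM in iKO mice, a log2 ratio of means of -0.65 with no overlap (two-sided exact permutation p = 0.1, the smallest that 3 against 3 can give). Of β1 and its alpha partners, 10 could be tested in endothelial and 6 in mesenchymal cells, and none passed the test. The partners furthest apart were scarce: Itga8 was 0.389 to 2.40 CPM in fl/fl and 4.67 to 6.41 CPM in iKO mice (log2 fold change 1.83 ± 0.45, adjusted p = 0.0877) and Itga4 was 2.70 to 6.61 CPM in fl/fl and 1.48 to 2.38 CPM in iKO mice (log2 fold change -1.44 ± 0.41, adjusted p = 0.129) in endothelial cells, without overlap. Itga6, a laminin receptor subunit, was 326 to 366 CPM in fl/fl and 368 to 398 CPM in iKO mice, and Itga5, a fibronectin receptor subunit, was 84.2 to 104 CPM in fl/fl and 90.7 to 107 CPM in iKO mice in endothelial cells.

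Endothelial cells differed between the genotypes at 215 of 11078 autosomal genes tested (1.94%, adjusted p below 0.05). In iKO mice 146 genes were higher (1.32%) and 69 were lower (0.623%), and 58 of the rises and 25 of the falls were larger than 2-fold. The median log2 fold change of all genes tested was 0.01. In each of the 215 genes the 3 iKO mice lay wholly above or wholly below the 3 fl/fl mice, which was true of 22.1% of all genes tested (above in 13.7%, below in 8.37%). Mesenchymal cells differed at 3 of 5692 genes (0.0527%), with 2 higher (0.0351%) and 1 lower (0.0176%). An unadjusted p below 0.05 was found for 1793 endothelial genes (16.2%) and 325 mesenchymal genes (5.71%), and the DESeq2 Wald test called 10 mesenchymal genes. On simulated counts of the same depth the mesenchymal test recovered 85 of 89 genes changed by a log2 of 2 but 17 of 50 changed by 1 and 4 of 43 changed by 0.5, with 5 false calls. The endothelial test recovered 99 of 99, 47 of 50 and 15 of 48, with 14 false calls. The simulation gave all genes of a cell type the same spread between mice beyond counting noise. Recovery of genes that vary more was therefore not measured. In the real mesenchymal sums, clock genes reached a log2 fold change of 3.12 with none called.

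**Figure D1:**
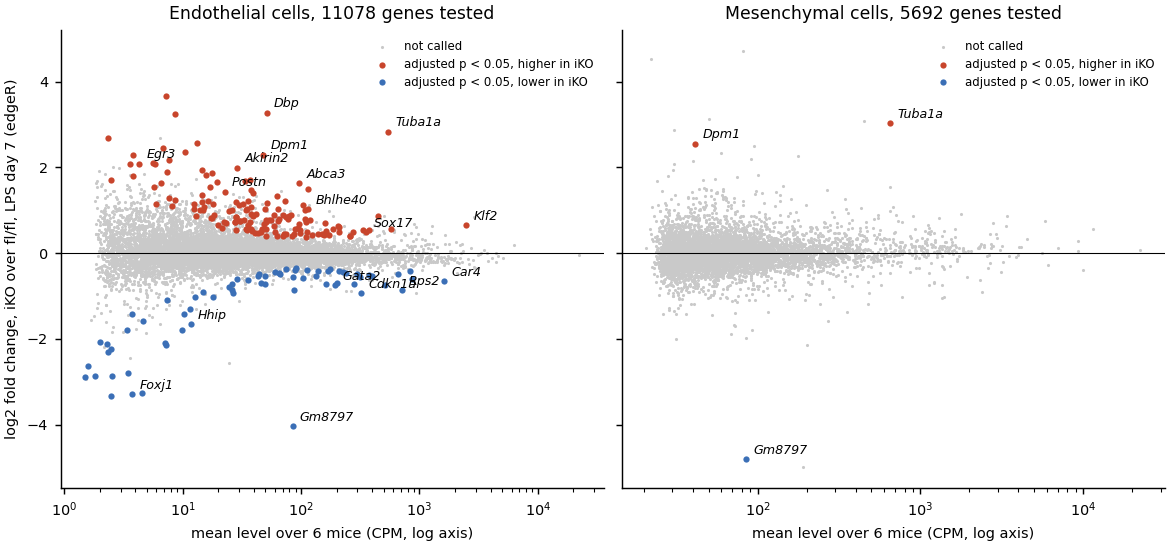
The log2 fold change of every gene tested (iKO over fl/fl, LPS day 7, edgeR) against its mean CPM over 6 mice on a log axis, in endothelial cells on the left and mesenchymal cells on the right; red and blue points are the genes higher and lower in iKO at an adjusted p below 0.05. Gm8797, Tuba1a and Dpm1 are called in both panels, and the other calls are in the endothelial panel.

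The endothelial count rested on the mice included. It was 95, 58 and 84 without fl/fl mouse 1, 2 and 3, 80 without iKO mouse 2, and 344 without iKO mouse 3. In cells with no UMI of the cycling genes Mki67 or Top2a it was 347, of which 210 were among the 215. Of 61 called endothelial genes chosen for description, 14 were called under every alternative in which they could be tested: Tuba1a, Gm8797, Dpm1, Akirin2, Tcf7, Lysmd4, Ccnyl1, Dynlt1f, Dynlt1c, Bmp4, Abca3, Postn, Foxj1 and Tmem212. Of these, Abca3, Postn, Foxj1 and Tmem212 were not among the 40 genes tested when genes held far higher by another gate were left out, and Foxj1 and Tmem212 could not be tested in cells with Gpihbp1 and no Car4. In those cells 54 of the 61 could be tested and 23 lost the call, namely Sult1a1, Fam174b, Banp, Clu, Tnfaip3, H2-Q6, Klf2, Plk2, Trp53inp1, Vegfc, Gucy1a1, Sox17, Dynlrb2, Lcn2, Higd1b, Cox4i2, Eln, Chil1, Cyp2f2, Ackr3, Cry2, Cxcl14 and Errfi1. With barcodes of at least 1000 genes the count was 161 (121 higher, 40 lower) and 21 of the 61 lost the call, namely Sult1a1, Banp, Gata2, Clu, Rasa4, Tnfaip3, H2-Q6, Klf2, Egr3, Plk2, Trp53inp1, Eln, Gja5, Chil1, Bpifa1, Car4, Cyp2f2, Hhip, Ackr3, Cxcl14 and Errfi1. With the other hashtag rule, a highest tag at 80% or more of a cell's tag counts, 12 did so, namely Sult1a1, Gata2, Tnfaip3, H2-Q6, Lcn2, Chil1, Cyp2f2, Hhip, Ackr3, Cry2, Ctgf and Errfi1. With at least 4 UMIs of the gate genes 10 did so, namely Rasa4, Tnfaip3, Trp53inp1, Chil1, Bpifa1, Hhip, Ackr3, Ctgf, Cxcl14 and Errfi1. In all, 47 lost the call in at least 1 alternative, and none of the 61 reversed.

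Gm8797, Tuba1a and Dpm1 passed the test in both cell types, with differences of several fold and no overlap between the genotypes. Gm8797 (chr3:5750806-5751295), a predicted protein-coding gene, was the most lowered: 159.7, 159 and 161 CPM in fl/fl and 10.6, 9.85 and 9.27 in iKO mice in endothelial cells (log2 fold change -4.03 ± 0.09, adjusted p = 3.73e-08). In mesenchymal cells it was 196, 146 and 148 CPM in fl/fl and 12.7, 2.24 and 4.96 in iKO mice (log2 fold change -4.80 ± 0.39, adjusted p = 6.81e-04). The iKO mice thus held far less than the fl/fl level in either cell type. Tuba1a (chr15:98949837-98953703), an α-tubulin of microtubules, was the reverse, with 139, 128 and 126 CPM in fl/fl and 996, 936 and 925 in iKO mice in endothelial cells (log2 fold change 2.83 ± 0.09, adjusted p = 3.92e-07) and 182, 146 and 118 CPM in fl/fl and 1153, 1183 and 1124 in iKO mice in mesenchymal cells (log2 fold change 3.04 ± 0.24, adjusted p = 6.81e-04). Dpm1 (chr2:168209048-168230591), the catalytic subunit of dolichol-phosphate mannose synthase, which supplies mannose for N-glycans and GPI anchors, rose from 15.9, 13.4 and 18.5 CPM to 81.2, 80.6 and 76.8 CPM in endothelial cells (log2 fold change 2.29 ± 0.11, adjusted p = 1.50e-05). In mesenchymal cells Dpm1 was 9.82, 18.7 and 10.4 CPM in fl/fl and 76.3, 65.0 and 68.7 in iKO mice (log2 fold change 2.56 ± 0.32, adjusted p = 0.0237), and there the call was lost without fl/fl mouse 3 or any 1 iKO mouse (adjusted p up to 0.29), as well as with the other hashtag rule and with at least 4 UMIs of the gate gene.

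The uninjured iKO mice lay near the injured iKO mice for these 3 genes. Endothelial Gm8797 was 12.4, 10.1 and 11.7 CPM, Tuba1a 1222, 1059 and 1159 CPM and Dpm1 68.4, 65.5 and 66.4 CPM in the mice given PBS, where mouse 1 was the Xist-expressing mouse and did not stand apart from the other two. At day 21 Gm8797 was 259 to 286 CPM in fl/fl and 116 to 132 CPM in iKO endothelial cells, and Tuba1a was 199 to 259 and 319 to 345 CPM, so that both differences had the day 7 direction and were smaller. Sequence shared with other genes may limit what these counts show, and how reads were split between genes was not measured. Of the 90-base stretches of Gm8797 transcripts, 62.6% also occurred in another gene, Ubb or Gm1821. Of those of Tuba1a 66% occurred in another gene, most often Tuba1c, and of those of Dpm1 10.5% occurred in Gm20716. Ubb itself, which encodes ubiquitin, was 3189 to 3433 CPM in fl/fl and 3226 to 3497 CPM in iKO mice (log2 fold change 0.00 ± 0.09). Tuba1b was 351, 335 and 358 CPM in fl/fl and 444, 458 and 757 CPM in iKO mice and did not pass (log2 fold change 0.64 ± 0.18, adjusted p = 0.124).

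**Figure D2:**
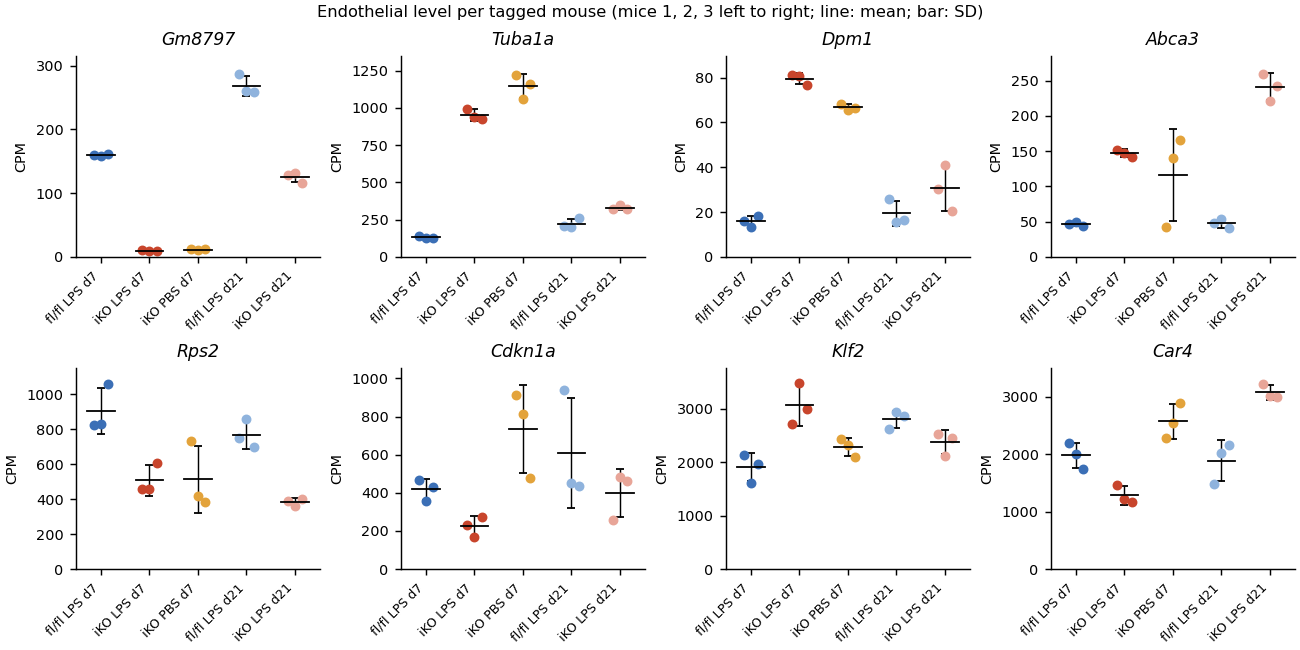
CPM of 8 genes in endothelial cells, on a linear axis from 0, with 1 point per tagged mouse in each of the 5 libraries, the group mean as a line and the SD as a bar. Gm8797, Tuba1a and Dpm1 separate all day 7 iKO mice, injured or not, from fl/fl mice. Abca3 of PBS mouse 1 lies near the fl/fl mice, whereas Rps2 of that mouse lies between the injured day 7 groups. Car4 differs in opposite directions at day 7 and day 21.

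Among the further endothelial rises of over 2-fold, several were of single genes with varied roles. Clock genes and pericyte markers that rose by as much are described further below. Akirin2, a nuclear cofactor of inflammatory gene transcription, was 14.0, 10.0 and 10.4 CPM in fl/fl and 45.2, 50.8 and 43.9 in iKO mice (log2 fold change 1.99 ± 0.15, adjusted p = 3.34e-04), with 22 to 24.2 CPM in uninjured iKO mice. Tcf7, a transcription factor of the WNT pathway, was 5.83, 5.40 and 6.43 CPM in fl/fl and 25.4, 26.4 and 17.5 in iKO mice (log2 fold change 1.94 ± 0.21, adjusted p = 0.00229). Lysmd4 was 6.61, 7.41 and 8.30 CPM in fl/fl and 27.8, 25.9 and 29.7 in iKO mice (log2 fold change 1.87 ± 0.15, adjusted p = 4.00e-04). None of these groups overlapped, and in each the uninjured iKO mice (Tcf7 10.5 to 13.7 CPM, Lysmd4 10.4 to 11.3 CPM) lay between the injured groups. Ccnyl1, a cyclin Y-like gene, was 8.35 to 10.4 CPM in fl/fl and 25.6 to 34.0 CPM in iKO mice (log2 fold change 1.66 ± 0.16, adjusted p = 0.00128). The dynein light chain Dynlt1f was 15.3 to 16.0 CPM in fl/fl and 43.9 to 66.7 CPM in iKO mice (log2 fold change 1.68 ± 0.17, adjusted p = 0.00217), and its close copy Dynlt1c was 31.1 to 38.8 CPM in fl/fl and 88.2 to 92.1 CPM in iKO mice (log2 fold change 1.33 ± 0.09, adjusted p = 2.31e-04). Dynlt1f shares 80.1% of its 90-base stretches with other genes of its family, so the counts of the 2 cannot be firmly separated. Dynlt1a and Dynlt1b did not pass (log2 fold changes 0.11 ± 0.22 and -0.20 ± 0.22).

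Among genes at 20 CPM or more that endothelial cells hold at 0.2 or more of the highest gate, the largest falls after Gm8797 were under 2-fold. Cdkn1a, which encodes the cell cycle inhibitor p21, was 466, 359 and 429 CPM in fl/fl and 229, 167 and 273 in iKO mice (log2 fold change -0.94 ± 0.17, adjusted p = 0.0254), below the 476 to 915 CPM of uninjured iKO mice. Rps2, a protein of the small ribosomal subunit, was 827, 831 and 1058 CPM in fl/fl and 456, 458 and 609.7 in iKO mice (log2 fold change -0.86 ± 0.14, adjusted p = 0.0168). Lipe, hormone-sensitive lipase, was 90.3, 129 and 115 CPM in fl/fl and 68.0, 57.9 and 63.0 in iKO mice (log2 fold change -0.85 ± 0.13, adjusted p = 0.013). The iKO mice lay below all fl/fl mice in each of these genes, and 32.5% of the 90-base stretches of Rps2 transcripts also occur in other genes, mostly its pseudogenes. Gata2, a transcription factor that maintains endothelial identity, was 255, 246 and 223 CPM in fl/fl and 187, 135 and 116 in iKO mice (log2 fold change -0.76 ± 0.16, adjusted p = 0.045). Clu, the secreted chaperone clusterin, was 638, 694 and 567 CPM in fl/fl and 459, 336 and 366 in iKO mice (log2 fold change -0.74 ± 0.13, adjusted p = 0.0242). The remaining members of this set, Sult1a1 (a sulfotransferase), Fam174b, Banp and Rasa4 (a Ras GTPase-activating protein), fell by 0.73 to 0.93 on the log2 scale (adjusted p = 0.013 to 0.05). Each of these 9 calls was lost when some 1 mouse was left out (highest adjusted p 0.0505 to 0.201), Fam174b without fl/fl mouse 3 only. In cells with Gpihbp1 and no Car4, Fam174b was at -0.10 (adjusted p = 0.965) and Clu at -0.21 (adjusted p = 0.519) on the log2 scale.

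Genes of the circadian clock and its outputs were in part higher in iKO endothelium. Of 19 genes listed, 17 were tested, 7 were higher in iKO endothelial cells, none was lower, and 14 lay above 0, with a median log2 fold change of 1.02 beside 0.01 for all genes. The genotypes did not overlap in 14 of the 17, with iKO mice wholly above in 11 and wholly below in 3, beside 22.1%, 13.7% and 8.37% of all endothelial genes tested, of which 1.32% were called higher. The clock is a loop in which CLOCK and ARNTL drive Per, Cry and Nr1d genes through E-boxes, the products of these genes repress the loop, and DBP, TEF and HLF carry the rhythm to other genes through D-boxes. Among the outputs, Dbp was 9.13, 9.41 and 9.75 CPM in fl/fl and 51.9, 167 and 60.9 in iKO mice (log2 fold change 3.28 ± 0.46, adjusted p = 0.0084). Tef was 19.4, 18.8 and 13.7 CPM in fl/fl and 46.2, 83.8 and 42.6 in iKO mice (log2 fold change 1.70 ± 0.26, adjusted p = 0.015). The iKO mice did not lie together in either gene, as mouse 2 was far above mice 1 and 3.

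Among the repressors, Per3 was 7.38, 6.00 and 7.26 CPM in fl/fl and 17.4, 40.6 and 16.7 in iKO mice (log2 fold change 1.83 ± 0.35, adjusted p = 0.0347) and Nr1d2 was 31.7, 30.4 and 32.6 CPM in fl/fl and 65.9, 92.1 and 58.5 in iKO mice (log2 fold change 1.17 ± 0.16, adjusted p = 0.0072). Nr1d1, which encodes REV-ERBα, was 24.7, 19.6 and 15.1 CPM in fl/fl and 47.5, 80.6 and 39.7 in iKO mice (log2 fold change 1.47 ± 0.27, adjusted p = 0.0293). iKO mouse 2 was highest in each of these as well. Cry2 was 6.81 to 8.94 CPM in fl/fl and 14.0 to 21.2 CPM in iKO mice (log2 fold change 1.14 ± 0.21, adjusted p = 0.0297) and Bhlhe40, which represses clock genes at E-boxes, was 79.1, 67.7 and 77.6 CPM in fl/fl and 108, 170.0 and 187 in iKO mice (log2 fold change 1.02 ± 0.18, adjusted p = 0.0239). Cry2 is held higher by epithelial cells (85.5 CPM against 12.4 CPM). Bhlhe40 alone among the 7 had its highest value in iKO mouse 3. The core activators Arntl and Clock lay below the fl/fl mice in every iKO mouse and did not pass: Arntl was 21.8, 19.0 and 23.9 CPM in fl/fl and 15.6, 4.19 and 9.27 in iKO mice (log2 fold change -1.19 ± 0.34, adjusted p = 0.125) and Clock was 68.9 to 74.6 CPM in fl/fl and 61.1 to 65.9 CPM in iKO mice, with a log2 fold change of -0.19 ± 0.08. Per1 (93.7 to 115 CPM in fl/fl and 87.9 to 135 CPM in iKO mice) and Per2 (2.49 to 5.83 CPM in fl/fl and 4.93 to 15.8 CPM in iKO mice) overlapped between the genotypes.

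Uninjured iKO mice had 16.1, 47.2 and 43.6 CPM of Dbp, 26.4, 43.3 and 38.0 CPM of Tef and 51.6, 109 and 107 CPM of Nr1d1, so that each uninjured mouse lay above the fl/fl mice given LPS. Bhlhe40 was 44.0 to 48.2 CPM in them, below both injured groups. Without iKO mouse 2 the median of the list was 0.82. The calls of Dbp, Tef and Per3 were lost without any 1 of the fl/fl mice, that of Nr1d2 without fl/fl mouse 2, and those of Bhlhe40, Nr1d1 and Cry2 without any 1 fl/fl mouse or iKO mouse 2 (highest adjusted p 0.0624 to 0.183 over the 7), Cry2 also without iKO mouse 1. The hour at which each mouse was killed is not given in the sources used here. In mesenchymal cells 9 clock genes were tested and none passed (median 0.61), Dbp being 24.5, 0 and 10.4 CPM in fl/fl and 42.4, 181 and 44.7 CPM in iKO mice.

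**Figure D3:**
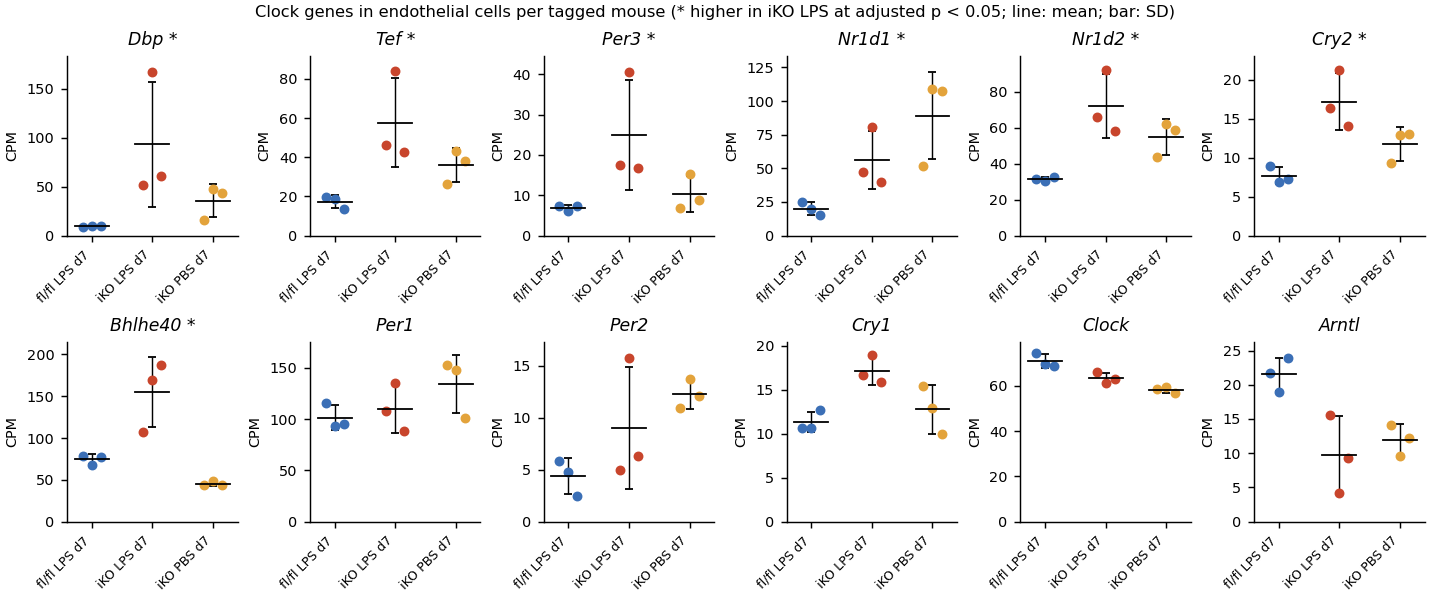
CPM of 12 clock genes in endothelial cells on linear axes from 0, with 1 point per tagged mouse of the 3 day 7 libraries, the mean as a line and the SD as a bar; a star marks the 7 genes higher in iKO mice given LPS. iKO mouse 2, the middle red point, is highest for Dbp, Tef, Per3, Nr1d1, Nr1d2 and Cry2, while Arntl is lower in all 3 iKO mice.

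The 250 bases upstream of the start sites of 16 of the 19 clock genes were read from the RefSeq promoter table (GRCm38.p6) and searched on both strands for the E-box CACGTG, which reads the same on either strand, and the D-box TTATGTAA. Of all 32851 promoters in that table, 6.02% hold the E-box and 0.819% the D-box in these bases. Counted by gene, 6.86% of 27025 hold the E-box and 0.977% the D-box. Of the 6 called genes in the table, Tef holds an E-box and Per3 a D-box, and Dbp, Nr1d1, Nr1d2 and Cry2 hold neither in these 250 bases. Bases elsewhere in or around the genes and variant forms of the motifs were not searched. Of the 9 genes tested and not called, Bhlhe41, Ciart, Cry1 and Per1 hold an E-box. The sequence upstream of Per3 (chr4:151044666-151044915, minus strand), which has 2 D-boxes, and that upstream of the second start of Tef (chr15:81811164-81811413, plus strand), which has 1 E-box, are shown because these are the called genes with a match. The bases upstream of the first start of Tef (chr15:81802423-81802672) also hold 1 E-box and overlap an annotated exon, so the second was printed. They read 5′ to 3′ with the motif in capitals.
Per3: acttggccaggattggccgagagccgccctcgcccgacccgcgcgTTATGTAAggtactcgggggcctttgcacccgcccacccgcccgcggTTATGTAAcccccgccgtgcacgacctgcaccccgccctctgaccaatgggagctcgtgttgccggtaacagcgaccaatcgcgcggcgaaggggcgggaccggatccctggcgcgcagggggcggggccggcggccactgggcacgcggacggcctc
Tef: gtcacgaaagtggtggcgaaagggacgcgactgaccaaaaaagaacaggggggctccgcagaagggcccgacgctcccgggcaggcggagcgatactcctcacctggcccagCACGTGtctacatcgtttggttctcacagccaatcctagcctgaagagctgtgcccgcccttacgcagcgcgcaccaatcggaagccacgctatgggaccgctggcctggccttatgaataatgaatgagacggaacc
A match is a run of letters and not a measured site of binding.

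Immediate early and flow-responsive transcription factors were in part higher in iKO endothelium. Of 25 genes of the AP-1 and immediate early list, 24 were tested and 22 lay above 0 (median log2 fold change 0.50). Of those tested, 4 were called higher and none lower, beside 1.32% and 0.623% of all endothelial genes. Klf2, a transcription factor induced by blood flow that keeps endothelium quiescent, was 2136, 1617 and 1972 CPM in fl/fl and 2714, 3488 and 2993 in iKO mice (log2 fold change 0.66 ± 0.13, adjusted p = 0.0443). Klf6 was 285, 249 and 272 CPM in fl/fl and 405, 421 and 374 in iKO mice (log2 fold change 0.55 ± 0.09, adjusted p = 0.0156). In uninjured iKO mice Klf2 was 2088 to 2426 and Klf6 227 to 252 CPM, while the summed level of the whole list was 20087 to 21802 CPM there, 10367 to 14998 CPM in fl/fl and 15145 to 20308 CPM in iKO mice given LPS. Nr4a1, a rapidly induced nuclear receptor, was 70.7, 50.6 and 54.6 CPM in fl/fl and 110.0, 215 and 181 in iKO mice (log2 fold change 1.49 ± 0.23, adjusted p = 0.013), and the scarce Egr3 was 0.830 to 2.33 CPM in fl/fl and 4.93 to 8.38 CPM in iKO mice (log2 fold change 2.08 ± 0.38, adjusted p = 0.028). The 2 most used AP-1 genes did not pass: Fos was 757 to 1234 CPM in fl/fl and 1017 to 1518 CPM in iKO mice and Jun was 1569.6 to 2242 CPM in fl/fl and 1771 to 2672 CPM in iKO mice, with overlapping mice. These genes respond to tissue handling, and the part of handling in the difference was not tested. All 4 calls were lost without fl/fl mouse 2 or 3 (highest adjusted p 0.0955 to 0.218), those of Klf2, Klf6 and Egr3 also without iKO mouse 2, and those of Klf2 and Egr3 also without fl/fl mouse 1 and with barcodes of at least 1000 genes. In cells with Gpihbp1 and no Car4, Klf2 did not pass either.

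Among 15 NF-κB genes tested, 2 were higher and none lower (median 0.05), beside 1.32% and 0.623% of all endothelial genes. Rel, a subunit of NF-κB, was 24.7, 20.6 and 22.4 CPM in fl/fl and 39.4, 41.1 and 34.9 in iKO mice (log2 fold change 0.74 ± 0.12, adjusted p = 0.0157), and Tnfaip3, a feedback inhibitor of the pathway, was 24.1, 21.6 and 26.6 CPM in fl/fl and 31.7, 48.3 and 45.8 in iKO mice (log2 fold change 0.77 ± 0.16, adjusted p = 0.0473). The 29 interferon-stimulated genes tested held no call and had a median of 0.00. Of 13 MHC class I genes, 12 lay below 0 (median -0.12) and 2 were called lower, beside 0.623% of all endothelial genes. They were the non-classical genes H2-T22, at 328, 301 and 408 CPM in fl/fl and 233, 187 and 222 in iKO mice (log2 fold change -0.72 ± 0.12, adjusted p = 0.0233), and H2-Q6, at 428, 411 and 469 CPM in fl/fl and 337, 267 and 335 in iKO mice (log2 fold change -0.51 ± 0.10, adjusted p = 0.0441). Class I genes are a family of near-identical members whose reads can be split between them, and uninjured iKO mice had 186 to 216 CPM of H2-T22. All 4 calls were lost without fl/fl mouse 3 or iKO mouse 2 (highest adjusted p 0.0834 to 0.219), and each was also lost without at least 1 other mouse.

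Vegfc, the growth factor for lymphatic vessels, was 36.5, 44.0 and 43.0 CPM in fl/fl and 65.7, 76.6 and 71.0 in iKO mice (log2 fold change 0.76 ± 0.10, adjusted p = 0.00576). It was the 1 call among 16 genes of the VEGF, angiopoietin and apelin list, beside 1.32% of all endothelial genes called higher. Bmp4, a ligand of the BMP pathway, was 6.99, 8.21 and 10.4 CPM in fl/fl and 25.2, 23.4 and 27.5 in iKO mice (log2 fold change 1.55 ± 0.17, adjusted p = 0.00255), and Ctgf, a matricellular target of TGF-β and YAP, was 63.7, 46.2 and 58.9 CPM in fl/fl and 78.1, 107 and 113 in iKO mice (log2 fold change 0.79 ± 0.16, adjusted p = 0.0369). These were the 2 calls among 24 TGF-β and BMP genes (median 0.21), beside 1.32% of all endothelial genes called higher. Areg, which encodes the EGF receptor ligand amphiregulin, was 2.14, 1.60 and 1.04 CPM in fl/fl and 13.2, 23.9 and 9.53 in iKO mice (log2 fold change 3.24 ± 0.42, adjusted p = 0.00576). Its level in epithelial cells was 741 CPM against 10.4 CPM in endothelial cells. Errfi1, an inhibitor of the EGF receptor, was 42.8 to 54.0 CPM in fl/fl and 66.4 to 72.7 CPM in iKO mice (log2 fold change 0.48 ± 0.10, adjusted p = 0.0449). The Vegfc call did not hold in cells with Gpihbp1 and without Car4 (adjusted p = 0.0924), that of Areg was lost without fl/fl mouse 2, and those of Ctgf and Errfi1 without any 1 fl/fl mouse or iKO mouse 2, Errfi1 also without iKO mouse 1 (adjusted p up to 0.168 and 0.183).

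Targets of p53 did not move one way. Of 15 tested, Cdkn1a and Trp53inp1 were lower, Plk2 was higher and 10 lay below 0 (median -0.21). Of all endothelial genes, 0.623% were called lower and 1.32% higher. Plk2, a polo-like kinase, was 450.3, 478 and 449.7 CPM in fl/fl and 594, 799 and 677 in iKO mice (log2 fold change 0.56 ± 0.11, adjusted p = 0.0376), and Trp53inp1 was 31.8 to 38.2 CPM in fl/fl and 21.9 to 24.1 CPM in iKO mice (log2 fold change -0.60 ± 0.11, adjusted p = 0.03). All 42 ribosomal protein genes tested lay below 0 (median -0.13), and only Rps2 passed. No gene passed among 31 of nuclear oxidative phosphorylation (median -0.07), 14 of cytosolic heat shock (-0.10), 17 of endoplasmic reticulum chaperones (-0.10), 14 of the integrated stress response (-0.07), 16 of hypoxia and glycolysis (-0.04), 16 of NRF2 and glutathione (0.03), 17 of cholesterol synthesis (0.30), 12 of Notch signalling (0.04), 15 of basement membrane (-0.05) or 9 of leukocyte adhesion (-0.10). Among 9 chemokines, 1 was called higher, beside 1.32% of all endothelial genes. It was Cxcl14 (3.00 to 3.94 CPM in fl/fl and 7.53 to 8.62 CPM in iKO mice, log2 fold change 1.15 ± 0.23, adjusted p = 0.0411), a call lost without any 1 mouse. The calls of Plk2 and Trp53inp1 were lost without any 1 fl/fl mouse or iKO mouse 2, Trp53inp1 also without iKO mouse 1 (adjusted p up to 0.161 and 0.11).

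**Figure D4:**
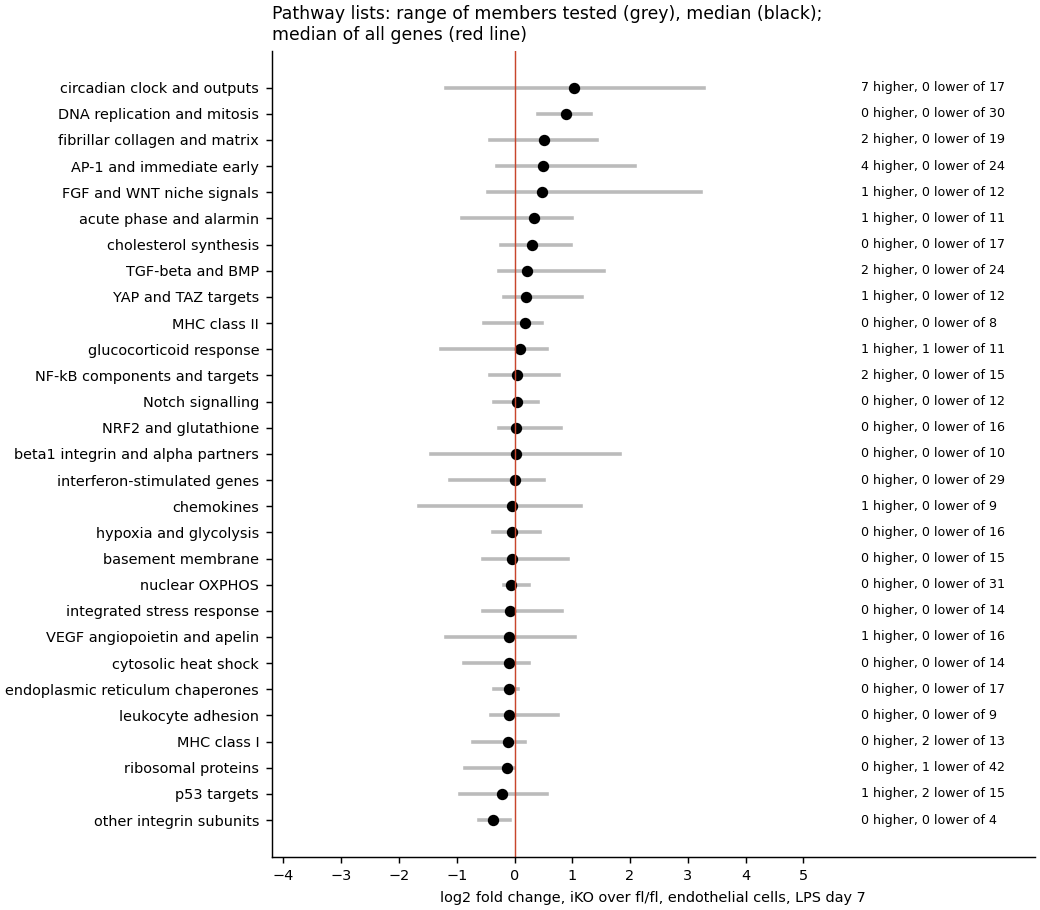
For each of 29 pathway lists, the range of the log2 fold changes of its tested members in endothelial cells (grey bar), their median (black dot) and the median of all genes tested (red line), with the number of members called at the right. The clock list, with a median of 1.02 and 7 genes higher, and the replication list, with a median of 0.89 and none called, lie farthest above the line.

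Of the capillary markers, 1 of 9 for aerocytes and 1 of 9 for general capillary cells passed, beside 1.94% of all endothelial genes. Car4, carbonic anhydrase 4, was 2188, 1999.9 and 1738 CPM in fl/fl and 1463, 1220.2 and 1157 in iKO mice (log2 fold change -0.65 ± 0.13, adjusted p = 0.0351), and uninjured iKO mice had 2286 to 2889.8 CPM. All 9 aerocyte markers tested lay below 0 (median -0.35), among them Ednrb (236 to 432 CPM in fl/fl and 182 to 280.1 CPM in iKO mice), Fibin (227 to 427 CPM in fl/fl and 158 to 225 CPM in iKO mice) and Emp2 (850.0 to 1246 CPM in fl/fl and 592 to 777 CPM in iKO mice), but only Car4 passed. General capillary markers did not shift together, with 1 of 9 called and a median of 0.13. Gpihbp1, the anchor of lipoprotein lipase in capillaries, was 1268 to 1393 CPM in fl/fl and 1371 to 1647 CPM in iKO mice and Plvap was 1553 to 2074 CPM in fl/fl and 1528 to 1924 CPM in iKO mice. Ackr3, a scavenger of CXCL12, was the general capillary marker that rose, with 146, 166 and 163 CPM in fl/fl and 211, 229 and 312 in iKO mice (log2 fold change 0.64 ± 0.13, adjusted p = 0.0496). The call of Ackr3 was lost without any 1 fl/fl mouse or iKO mouse 2 (adjusted p up to 0.183), and in the 4 alternative selections of cells or hashtags named above. A sum over cells does not tell fewer aerocytes from less Car4 RNA per aerocyte. The share of cells with a Car4 UMI, given next, can also fall with either.

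The share of endothelial cells with a UMI of Car4 was lower in every iKO mouse. After each cell had been thinned to 1000 UMIs it was 47.8%, 47.3% and 43.0% in fl/fl and 32.2%, 31.9% and 29.8% in iKO mice, a difference of -14.7 percentage points (two-sided exact permutation p = 0.1, the smallest possible with 3 mice each, and 0.3 after Benjamini-Hochberg adjustment over the 3 shares tested). Uninjured iKO mice had 42.6%, 48.3% and 48.8%, which overlapped the fl/fl mice given LPS. Without thinning the shares were 59.2% to 64.2% in fl/fl and 45.8% to 46.0% in iKO mice, at median depths of 2277 to 2554 and 2416 to 2695 UMIs per cell. In mesenchymal cells, which should lack Car4, the thinned share was 2.33% to 5.13% in fl/fl and 2.50% to 2.67% in iKO mice. Without any 1 mouse the difference lay between -16.2 and -13.8 points, while the adjusted p of Car4 in the test of levels rose to as much as 0.181, without fl/fl mouse 2, and the call was also lost without fl/fl mouse 1 or 3 or iKO mouse 2 and with barcodes of at least 1000 genes.

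Arterial genes were partly higher. Sox17, a transcription factor of arterial endothelium, was 282, 288 and 315 CPM in fl/fl and 435, 402 and 423 in iKO mice (log2 fold change 0.48 ± 0.08, adjusted p = 0.0157), and Gja5, the arterial gap junction protein connexin 40, was 14.4, 16.0 and 20.3 CPM in fl/fl and 29.8, 34.7 and 54.5 in iKO mice (log2 fold change 1.20 ± 0.23, adjusted p = 0.0311). These were 2 of 8 arterial markers tested (median 0.15), beside 1.32% of all endothelial genes called higher. Both calls were lost without fl/fl mouse 1 or 2 or iKO mouse 2 (adjusted p up to 0.161), that of Gja5 also without fl/fl mouse 3. Lymphatic markers lay below 0 in 10 of 10 (median -0.60) with none called. Their summed level was 2106, 2029.5 and 2008 CPM in fl/fl and 738, 1156 and 2136 CPM in iKO mice, so that iKO mouse 3 lay with the fl/fl mice. Without it 7 of the 10 were called lower, beside 122 of all 11327 genes tested in that fit, and the median was -1.76. Over the mice left out 1 at a time the median ranged from -1.76 to -0.26.

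Replication and mitosis genes lay above 0 in 30 of 30 in iKO endothelium, with a median of 0.89 and no call. Mki67, a marker of cycling cells, was 40.4, 51.2 and 53.7 CPM in fl/fl and 48.8, 61.8 and 168 in iKO mice and Top2a, the mitotic topoisomerase, was 52.3, 53.6 and 91.1 CPM in fl/fl and 61.8, 80.8 and 227 in iKO mice. iKO mouse 3 stood apart, and without it the median was 0.19. The thinned share of endothelial cells with a UMI of Mki67 or Top2a was 3.76%, 4.11% and 4.14% in fl/fl and 3.97%, 4.71% and 14.2% in iKO mice, and 0 to 0.353% in uninjured iKO mice. The difference of 3.63 points did not pass (two-sided exact permutation p = 0.3, adjusted p = 0.45) and was 0.34 points without iKO mouse 3. Mesenchymal cells were 1.90%, 2.37% and 6.69% of the endothelial, mesenchymal and epithelial cells in fl/fl and 2.74%, 4.59% and 11.3% in iKO mice (exact permutation p = 0.5, adjusted p = 0.5). Here mouse 3 (hashtag 5) was highest in each group and the iKO mouse lay above the fl/fl mouse within each hashtag, and without iKO mouse 3 the difference was 0.01 points.

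Some endothelial calls were of genes that another cell type held at a far higher level. Of the 146 rises, 24 had less than 0.2 of the level of another gate (15 highest in mesenchymal, 9 in epithelial cells), and of the 69 falls, 20 did (18 highest in epithelial cells). Among genes at 0.2 or more of the highest gate, 171 of 10273 were called in endothelial cells (1.66%) and 3 of 5536 in mesenchymal cells (0.0542%). Pericyte markers were 4 higher of 7 tested (median 1.09), namely Postn, Gucy1a1, Higd1b and Cox4i2, beside 1.32% of all endothelial genes. Their summed level was 56.9, 59.4 and 53.3 CPM in fl/fl and 125, 113 and 108 CPM in iKO endothelial cells, beside 1897 to 2574 and 1906 to 3866 CPM in mesenchymal cells. Postn, the matrix protein periostin, was 9.52, 13.2 and 13.5 CPM in fl/fl and 37.1, 31.0 and 31.5 in iKO mice (log2 fold change 1.43 ± 0.16, adjusted p = 0.00255). Eln, elastin, was 67.0, 68.9 and 86.1 CPM in fl/fl and 107, 109.9 and 123 in iKO mice (log2 fold change 0.59 ± 0.10, adjusted p = 0.0249), and was 3278 CPM in mesenchymal cells. Hhip, an inhibitor of hedgehog ligands, was the 1 call among 7 smooth muscle and myofibroblast markers tested, beside 0.623% of all endothelial genes called lower. It was 10.6 to 22.7 CPM in fl/fl and 3.70 to 7.41 CPM in iKO mice (log2 fold change -1.65 ± 0.34, adjusted p = 0.0433).

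AT2 markers lay above 0 in 12 of 12 in iKO endothelial cells, and 3 were called higher (Abca3, Lcn2 and Chil1), beside 1.32% of all endothelial genes. The summed level of the 12 was 4274, 2382 and 1828 CPM in fl/fl and 4951, 5981 and 4384 CPM in iKO mice, against 199589 CPM in epithelial cells, and 481 to 925 CPM in uninjured iKO mice. Among these uninjured mice the sum was highest in mouse 1, where Abca3, described further below, was lowest. Sftpc, surfactant protein C, was 3188, 1716 and 1233 CPM in fl/fl and 3615, 4320.2 and 3353 in iKO mice and did not pass (log2 fold change 0.85 ± 0.30, adjusted p = 0.202). Lcn2, lipocalin 2, was 38.3, 38.0 and 38.0 CPM in fl/fl and 52.7, 71.4 and 68.0 in iKO mice (log2 fold change 0.72 ± 0.12, adjusted p = 0.0176), and Chil1, a chitinase-like protein, was 59.8, 42.6 and 38.2 CPM in fl/fl and 77.9, 87.5 and 84.7 in iKO mice (log2 fold change 0.80 ± 0.15, adjusted p = 0.0341). Airway epithelial markers lay below 0 in 8 of 10 (median -1.17) and 6 were called lower, beside 0.623% of all endothelial genes. They were the ciliated cell genes Foxj1, Tmem212, Ccdc153 and Dynlrb2 and the secretory cell genes Cyp2f2 and Bpifa1. Foxj1 was 6.80, 7.61 and 6.02 CPM in fl/fl and 0.519, 0.985 and 0.529 in iKO mice (log2 fold change -3.29 ± 0.35, adjusted p = 0.00252). Scgb1a1, the most abundant secretory cell gene, was 1279 to 2158 CPM in fl/fl and 1329.5 to 1640.4 CPM in iKO mice and did not pass. Of 3 haemoglobin and red cell genes tested, 1 was called higher, beside 1.32% of all endothelial genes. It was Hba-a2 (1.17 to 1.45 CPM in fl/fl and 5.71 to 7.64 CPM in iKO mice, log2 fold change 2.28 ± 0.30, adjusted p = 0.00587). The part of free RNA in these values was not tested. Of the calls in these 2 paragraphs, those of Abca3, Postn, Foxj1 and Tmem212 held whichever mouse was left out. Those of Ccdc153 and Dynlrb2 were lost without fl/fl mouse 1 or 3 or iKO mouse 2, that of Cyp2f2 without 5 of the 6 mice and that of Bpifa1 without any 1 of the 6 (highest adjusted p 0.0778 to 0.128). Those of Eln, Hhip, Lcn2, Chil1 and Hba-a2 were lost without fl/fl mouse 2 (highest adjusted p 0.053 to 0.195 over the mice left out), as were 3 of the pericyte calls, and of these 8 all but Hba-a2 were also lost without at least 1 other mouse.

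**Figure D5:**
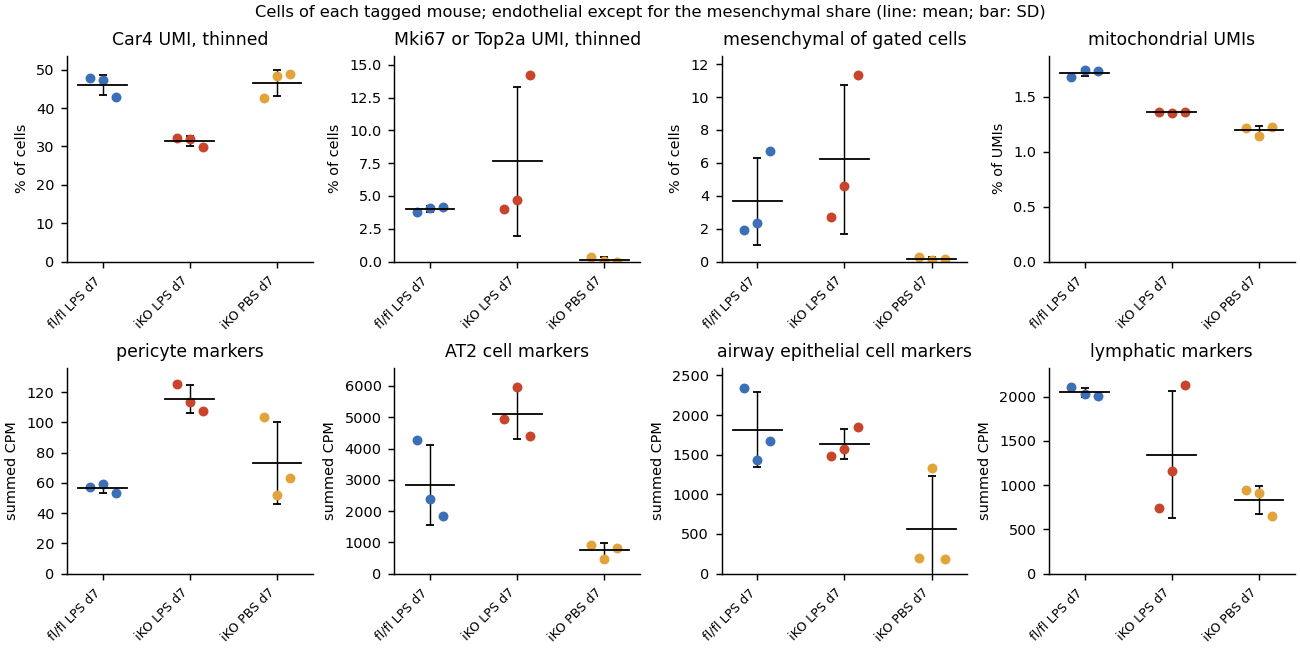
One point per tagged mouse of the 3 day 7 libraries, with the mean as a line and the SD as a bar. The upper row gives the thinned shares of endothelial cells with Car4 and with Mki67 or Top2a, the mesenchymal share of gated cells and the mitochondrial share of endothelial UMIs, and the lower row the summed CPM of 4 marker lists in endothelial cells; the Car4 share and the pericyte and AT2 sums of the 3 iKO mice given LPS do not overlap those of the fl/fl mice, whereas iKO mouse 3 alone is high for cycling cells.

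Mesenchymal cells gave no call in any of the 46 lists. The 3 genes called there were Tuba1a, Dpm1 and Gm8797, whose values stand above. Members of several lists lay to one side: of 23 immediate early genes 22 lay above 0 (median 0.44), of 19 interferon-stimulated genes 18 lay below 0 (-0.46), of 14 heat shock genes 13 lay below 0 (-0.38), and of 12 MHC class I genes 10 lay below 0 (-0.47). Of 31 nuclear OXPHOS genes 23 lay below 0 (-0.13), of 17 endoplasmic reticulum chaperones 14 lay below 0 (-0.26), and of 42 ribosomal protein genes 36 lay above 0 (0.08). The median of all mesenchymal genes was -0.01. Leaving out 1 mouse moved these medians. They ranged from 0.11 to 0.58 for immediate early, -0.78 to -0.19 for interferon-stimulated and -0.46 to -0.33 for heat shock genes. The ranges were -0.55 to -0.39 for class I genes, -0.20 to -0.04 for OXPHOS and -0.31 to -0.09 for chaperones. For ribosomal proteins the sign also turned (-0.02 to 0.29). The 3 iKO mice lay wholly below the fl/fl mice in 10 of the OXPHOS genes, 8 of the heat shock genes, 5 of the class I genes and 3 of the chaperones. They did so in 2 of the interferon-stimulated genes and 1 of the ribosomal protein genes, beside 6.59% of all mesenchymal genes. They lay wholly above in 1 of the immediate early genes, beside 4.15% of all (10.7% in either direction). Hspa1b, the inducible HSP70, was 648, 629 and 741 CPM in fl/fl and 335, 249 and 279.7 in iKO mice without overlap (log2 fold change -1.18 ± 0.20, adjusted p = 0.138), and Hsph1, its nucleotide exchange factor, was 123, 168 and 143 CPM in fl/fl and 50.9, 20.2 and 48.8 in iKO mice (adjusted p = 0.138). C7, a terminal complement component made by fibroblasts, was 442, 389 and 201 CPM in fl/fl and 1259, 819.8 and 789 in iKO mice (adjusted p = 0.336), and Igfbp5 was 196, 239 and 191 CPM in fl/fl and 466, 632 and 338 in iKO mice (adjusted p = 0.307). None of these 4 passed. The mix of mesenchymal cells differed from mouse to mouse, with adventitial fibroblast markers at 36307, 22196 and 10338 CPM in fl/fl and 39845, 34927 and 20751 CPM in iKO mice. Without fl/fl mouse 1, which had 39 cells, 26 genes were called.

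A direct test of whether the genotype effect differed between the 2 cell types, over 12 sums with the mouse as a block, found 2 of 11791 genes (0.017%), both with the lower effect in mesenchymal cells, and 652 at an unadjusted p below 0.05 (5.53%). Actc1, the cardiac actin, was 39.3, 808 and 270.3 CPM in fl/fl and 4.24, 15.7 and 10.8 in iKO mice in mesenchymal cells and 3.11 to 3.80 and 2.34 to 9.61 CPM in endothelial cells, a difference of the log2 fold changes of -5.06 ± 0.71 (adjusted p = 0.0102). Cxcl10, an interferon-induced chemokine, was 348, 595 and 80.5 CPM in fl/fl and 4.24, 24.6 and 149 in iKO mice in mesenchymal cells and 39.4, 27.0 and 15.6 CPM in fl/fl and 13.5, 29.8 and 76.5 in iKO mice in endothelial cells (-2.79 ± 0.44, adjusted p = 0.0249). In mesenchymal cells both genes varied widely among the fl/fl mice, the genotypes overlapped for Cxcl10 in both cell types and for Actc1 in endothelial cells, and both calls were lost without iKO mouse 2 (adjusted p = 0.184 and 0.0655). The number of genes was 76 without fl/fl mouse 1, 15 without fl/fl mouse 3, 54 without iKO mouse 3 and 1 without iKO mouse 2. For Klf2 the mesenchymal values were 1256, 1022 and 645 CPM in fl/fl and 1725, 1362 and 981 in iKO mice, higher on average as in endothelium but overlapping, and no difference between the cell types was called.

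Day 21 allowed a test of whether the endothelial genotype effect differed between the times. It rested on other animals, on 739 fl/fl and 642 iKO tagged endothelial cells, and on libraries enriched for EPCAM+ cells. The genotype effect in endothelium differed between the days at 87 of 10620 genes (0.819%), higher at day 7 in 49 (0.461%) and lower in 38 (0.358%). At day 21 alone 7140 genes could be tested, of which 83 were higher (1.16%) and 82 lower (1.15%) in iKO mice (2.31% in all). Car4 had opposite effects: at day 21 it was 1485, 2023 and 2151 CPM in fl/fl and 3223, 3004 and 2995 CPM in iKO mice (log2 fold change at day 7 minus that at day 21 of -1.36 ± 0.18, adjusted p = 0.00149). The other aerocyte genes Kdr (-0.98 ± 0.20, adjusted p = 0.0292), Emp2 (-1.22 ± 0.25, adjusted p = 0.0318), Igfbp7 (-0.87 ± 0.18, adjusted p = 0.0347) and Fibin (-1.39 ± 0.30, adjusted p = 0.0376) differed in the same sense. Klf2 (0.90 ± 0.16, adjusted p = 0.0166), Klf6 (0.69 ± 0.14, adjusted p = 0.0267) and Nr4a1 (2.49 ± 0.34, adjusted p = 0.00201) had higher effects at day 7, as did Sox17 (0.85 ± 0.16, adjusted p = 0.0166), Ackr3 (2.24 ± 0.37, adjusted p = 0.00904) and Plk2 (1.08 ± 0.17, adjusted p = 0.00782). The same held for Tuba1a, Dpm1, Akirin2, Tcf7 and Lysmd4 (log2 differences 1.59 to 2.29), and the fall of Gm8797 was larger at day 7 (-2.94 ± 0.16, adjusted p = 9.21e-09). Lower effects at day 7 were also found for Lcn2 (-1.82 ± 0.24, adjusted p = 0.00149), Clu, Chil1 and Rasa4 (log2 differences -1.60 to -1.29), and a higher one for Postn (1.73 ± 0.39, adjusted p = 0.0462). AT2 markers, which include Lcn2 and Chil1, summed to 2931 to 6013 CPM in fl/fl and 18313 to 18874 CPM in iKO endothelial cells at day 21. The part of AT2 cell RNA in these differences was not tested. None of the 7 called clock genes differed between the days beyond the threshold, Dbp being 3.94 to 5.20 CPM in fl/fl and 0 to 16.9 CPM in iKO mice at day 21 (adjusted p = 0.634). Of the day 21 mice, the hashtag of fl/fl mouse 1 carried both Xist (96.1 CPM) and Y-linked transcripts (89.0 CPM) and may hold more than 1 mouse, fl/fl mice 2 and 3 and iKO mouse 1 expressed Xist, and the other two iKO mice carried Y-linked transcripts. The number of genes ranged from 24 (without day 21 iKO mouse 2) to 131 (without day 7 iKO mouse 3) when 1 mouse was left out and was 31 when a cell took its highest tag at 80% or more of its tag counts. Under that rule Gm8797, Tuba1a, Nr4a1, Ackr3, Plk2, Lcn2 and Chil1 still passed, and Car4, Kdr, Emp2, Igfbp7, Fibin, Klf2, Klf6, Sox17, Dpm1, Akirin2, Tcf7, Lysmd4, Postn, Clu and Rasa4 did not. Gm8797, Tuba1a, Car4, Nr4a1, Ackr3, Plk2, Lcn2 and Clu passed whichever of the 12 mice was left out, while Klf2 and Sox17 were lost without day 21 iKO mouse 2 (adjusted p = 0.0728 for each). Chil1 was lost without 4 of the 12, Klf6 without 5, Emp2 and Lysmd4 without 6, Kdr and Akirin2 without 7, Dpm1, Tcf7, Igfbp7, Fibin and Rasa4 without 8 and Postn without 9.

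The called genes lay on every autosome, from 0.959% of the genes tested on chromosome 5 to 3.52% on chromosome 13, beside 1.94% of all. Around Itgb1 itself, 1 of 76 genes between 120 and 130 Mb of chromosome 8 was called. On chromosome 17, Abca3 (chr17:24351950-24410201), a lipid transporter of AT2 cell lamellar bodies, and Rps2 (chr17:24718116-24721929) start 366 kb apart and changed in opposite directions. Abca3 was 46.2, 49.2 and 43.6 CPM in fl/fl and 152, 148 and 141 in iKO mice in endothelial cells (log2 fold change 1.64 ± 0.08, adjusted p = 1.50e-05), and Rps2, whose reads can be shared with its copies, has been given above. Among the 18 genes tested from one to the other, the remaining 16 had log2 fold changes from -0.29 to 0.56 and none passed (lowest adjusted p = 0.188). In uninjured iKO mice Abca3 was 42.0, 141 and 165 CPM and Rps2 736, 419.8 and 383 CPM. Mouse 1 thus lay near the fl/fl mice in Abca3 and between the injured groups in Rps2. Mice 2 and 3 lay near or beyond the iKO mice given LPS in both genes. At day 21 Abca3 was 41.0 to 53.2 CPM in fl/fl and 259.6, 221 and 242 CPM in iKO mice, and Rps2 698 to 859 and 391, 361 and 402 CPM. Both mice numbered 1 among these iKO mice expressed Xist, and at day 21 that mouse lay with the other iKO mice. In mesenchymal cells Abca3 was 44.2, 7.48 and 5.75 CPM in fl/fl and 84.8, 53.8 and 44.7 in iKO mice and Rps2 1786, 1489 and 1903 CPM in fl/fl and 988, 936 and 1066 in iKO mice, in the same directions without overlap, and neither passed (adjusted p = 0.674 and 0.642).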

How the data were processed

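The authors deposited UMI counts per gene and hashtag for each barcode, made with Cell Ranger 3.1 on mm10 according to the submitters' processing notes, without normalization. No correction for free RNA was made here. Barcodes, gates and single hashtags were filtered as given in the report. A tag was in use at 1% or more of tag counts and carried at 4 times background. No doublet caller was run, and cells with several tags were left out. Counts were summed per mouse and cell type and tested with edgeR 4.0.16 (TMM, default filter, quasi-likelihood, Benjamini-Hochberg over all autosomal genes tested, threshold 0.05) in R 4.3.3. DESeq2 1.42.0 served as an alternative. The fits were tested on simulated data. Shares used cells thinned to 1000 UMIs, with exact permutation tests in scipy 1.17.1. Of 31053 genes, 99.6% matched GENCODE M21 (GRCm38), the source of coordinates.

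The genes named were, per cell type, the 10 largest rises and 10 largest falls among called genes without overlap, at 20 CPM or more in the higher group and at 0.2 or more of the highest gate, up to 3 called members of each list, the largest differences between cell types, Itgb1 and its partners, and called markers held higher by another gate as examples. The immune gate held 0 and 3 cells, so 3 gates were compared in place of 4. Dynlt1c, Nr1d1, Cry2, Nr4a1, Ctgf, Cxcl14, Errfi1, Areg, the copies of called genes, the uncalled genes given as examples and the position on chromosome 17 were chosen after their values were seen. Members and the 46 lists were chosen with earlier results of these data known. Each hashtag was taken as 1 mouse, as the labels describe, although 1 day 21 hashtag carried RNA of both sexes. The mice of a group were 1 library, so p-values measure the spread among 3 hashtags processed together.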

Additional observations from a re-analysis of the deposited data

Results flagged for a closer look

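The genotype effect differed between endothelial and mesenchymal cells at Actc1 by -5.06 (adjusted p = 0.0102) and at Cxcl10 by -2.79 (adjusted p = 0.0249), as the log2 fold change in mesenchymal minus that in endothelial cells (edgeR interaction over 12 sums with the mouse as a block). Both stood out by the test of the difference itself, and neither call held without iKO mouse 2.

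The endothelial genotype effect differed between day 7 and day 21, again by the edgeR test of the difference, at 22 of the genes described. As the log2 fold change at day 7 minus that at day 21, the effect was higher at day 7 for Nr4a1 by 2.49 (adjusted p = 0.00201), Tcf7 by 2.29 (adjusted p = 0.0389), Tuba1a by 2.26 (adjusted p = 1.41e-07), Ackr3 by 2.24 (adjusted p = 0.00904), Lysmd4 by 2.22 (adjusted p = 0.0347) and Akirin2 by 1.97 (adjusted p = 0.0415). The immediate early and arterial genes Klf2 by 0.90 (adjusted p = 0.0166), Klf6 by 0.69 (adjusted p = 0.0267) and Sox17 by 0.85 (adjusted p = 0.0166) and the genes Plk2 by 1.08 (adjusted p = 0.00782), Dpm1 by 1.59 (adjusted p = 0.0438) and Postn by 1.73 (adjusted p = 0.0462) followed the same direction. Of these 12, Klf2 and Sox17 were lost without 1 of the 12 mice, Klf6 without 5, Lysmd4 without 6, Akirin2 without 7, Dpm1 and Tcf7 without 8 and Postn without 9, and none of Nr4a1, Tuba1a, Ackr3 and Plk2 was lost this way. It was lower at day 7 for Gm8797 by -2.94 (adjusted p = 9.21e-09), Lcn2 by -1.82 (adjusted p = 0.00149), Chil1 by -1.60 (adjusted p = 0.0157), Clu by -1.30 (adjusted p = 0.00149) and Rasa4 by -1.29 (adjusted p = 0.0438). The aerocyte genes differed the same way, Car4 by -1.36 (adjusted p = 0.00149), Fibin by -1.39 (adjusted p = 0.0376), Emp2 by -1.22 (adjusted p = 0.0318), Kdr by -0.98 (adjusted p = 0.0292) and Igfbp7 by -0.87 (adjusted p = 0.0347). Of these 10, Gm8797, Lcn2, Clu and Car4 passed whichever mouse was left out, and the others were lost without 4 (Chil1), 6 (Emp2), 7 (Kdr) or 8 (Rasa4, Fibin, Igfbp7) of the 12. The 2 days differed in EPCAM enrichment, in cell number and in the animals, which cannot be told apart from the day. AT2 markers, which include Lcn2 and Chil1, summed in iKO endothelial cells to 4384 to 5981 CPM at day 7 and 18313 to 18874 CPM at day 21. In fl/fl endothelial cells they summed to 1828 to 4274 and 2931 to 6013 CPM. The part of AT2 cell RNA in these differences was not tested.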

How the results depend on the processing

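The counts of called genes depended on the processing. Without a filter on low counts they were 325 (endothelial), 181 (mesenchymal), 81 (difference between cell types) and 307 (difference between days). In cells with Gpihbp1 and no Car4, 88 endothelial genes were called, and in cells without Mki67 or Top2a, an alternative chosen after seeing the data, 347. The DESeq2 Wald test called 271 endothelial genes, of which 178 were among the 215, and Trp53inp1, Bpifa1, Cxcl14 and Errfi1 lost the call. Mesenchymal calls were 10 with that test and 6 with X and Y genes kept. With the other hashtag rule the differences between cell types and days numbered 73 and 31. Leaving out 1 mouse gave 58 to 344 endothelial calls, 2 to 26 mesenchymal calls, 1 to 76 between cell types and 24 to 131 between days. The Itgb1 log2 ratio then lay between -0.02 and 0.12 in endothelial and -0.10 and 0.32 in mesenchymal cells, the Car4 share difference between -16.2 and -13.8 points, the cycling share difference between 0.34 and 5.46 points and the mesenchymal share difference between 0.01 and 4.31 points. The cause of these shifts was not tested. None of the called genes described reversed under any alternative run, and DESeq2 size factors left the endothelial count at 217. The labels carry no replicate numbers, but both groups used hashtags 3, 4 and 5. Over genes, mice that share a hashtag had deviations from their group means correlated at 0.13, 0.04 and 0.32 in endothelial and 0.23, -0.0012 and 0.36 in mesenchymal cells, and not every mouse correlated best with its own number, so the number was not taken as a pairing. With the hashtag as a replicate block, also chosen after seeing the data, 459 endothelial genes (303 higher, 156 lower) and 53 mesenchymal genes (41 higher, 12 lower) were called, including all 215 and all 3 of the unblocked calls. The mesenchymal sums held as few as 39 cells and 205232 UMIs in a mouse. In simulated mesenchymal sums 17 of 50 genes changed by a log2 of 1 were recovered, against 47 of 50 in endothelial ones. The 3 mice a group limit every exact test to p = 0.1.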
